A study of Rattus norvegicus with 16 samples.

Results

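The class II region of the rat major histocompatibility complex, called RT1, was followed through 10 genes: the class II chain genes RT1-Da, RT1-Db1, RT1-Ba and RT1-Bb, the peptide editor genes RT1-DMa and RT1-DMb, the invariant chain gene Cd74, the immunoproteasome genes Psmb8 and Psmb9, and the peptide transporter gene Tap1. A gene entered by its symbol, through probe sets that the platform's annotation ties to a single gene, and the brightest probe set stood for it. All 10 genes were found among 14324 genes named in this way, and each had 1 such probe set. In RefSeq, 9 of them lie on chromosome 20, and Cd74, which belongs to the same pathway, lies on chromosome 18. The study compared hearts of Hypertrophic Heart Rats (HHR), whose hearts are labelled hypertrophic and whose condition is described as polygenic, with Normal Heart Rats (NHR), whose hearts are labelled normal. All rats were 2 days old and untreated as far as the labels say. Each strain had 4 females and 4 males, with 1 array per animal. The series text speaks of ventricles separated from atria and a label protocol of the whole heart, and which of them holds was not tested. The labels name no litter or dam, and litter and strain cannot be told apart.

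Class II molecules are pairs of an alpha and a beta chain that show peptides from swallowed proteins to helper T cells. The invariant chain fills their groove until it is trimmed in the endosome, and the DM pair then exchanges the last fragment for a peptide. Class I presentation uses peptides cut in the cytosol, where the immunoproteasome subunits replace constitutive ones after interferon gamma, and the Tap transporter carries them into the endoplasmic reticulum. In heart tissue class II proteins are known mainly from resident macrophages, dendritic cells and activated endothelium. Some genes of this region are among the most polymorphic in the genome, but not all of its genes are. Which of the genes followed here differ in sequence between HHR and NHR was not tested. Where HHR and NHR carry different alleles, a probe may bind one allele less well, and such a shift and a shift in RNA level cannot be told apart. Fewer cells of a type and less RNA per cell cannot be told apart in whole tissue either.

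Class II genes share a promoter module known as the X and Y boxes, and several class I processing genes carry an interferon-stimulated response element (ISRE). Promoter windows from RefSeq on GRCr8, 250 bases before to 50 after the annotated start, were found for 9 of the 10 genes and not for RT1-DMb. They come from the reference rat and not from HHR or NHR. The windows below run from 130 bases before to 20 after the start and show 3 genes with the class II module, of which 1 was lower in HHR, 1 did not pass the test and 1 was higher, and then 3 neighbouring genes of class I processing with the same spread of outcomes. Capitals mark the letters searched on both strands: ACNGATG, the end of the X1 box, ATTGG, the Y box, and GAAANNGAA, the core of the ISRE, whose reverse strand reads TTCNNTTTC.
RT1-Da, chr20:4515285-4515434, plus strand: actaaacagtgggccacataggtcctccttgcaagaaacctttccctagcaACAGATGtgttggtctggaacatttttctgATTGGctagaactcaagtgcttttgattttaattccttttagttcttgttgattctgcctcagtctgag
RT1-Bb, chr20:4604099-4604248, minus strand: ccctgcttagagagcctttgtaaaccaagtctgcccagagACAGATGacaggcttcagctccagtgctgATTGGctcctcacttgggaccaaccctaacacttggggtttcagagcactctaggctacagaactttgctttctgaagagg
RT1-DMa, chr20:4712316-4712465, minus strand: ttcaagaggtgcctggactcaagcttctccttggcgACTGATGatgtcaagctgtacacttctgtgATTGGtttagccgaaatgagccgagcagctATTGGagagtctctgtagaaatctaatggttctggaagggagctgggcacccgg
Psmb8, chr20:4657012-4657161, minus strand: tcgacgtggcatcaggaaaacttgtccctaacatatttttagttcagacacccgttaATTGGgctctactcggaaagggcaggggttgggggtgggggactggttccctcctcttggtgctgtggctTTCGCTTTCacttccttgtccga
Tap1, chr20:4668524-4668673, minus strand: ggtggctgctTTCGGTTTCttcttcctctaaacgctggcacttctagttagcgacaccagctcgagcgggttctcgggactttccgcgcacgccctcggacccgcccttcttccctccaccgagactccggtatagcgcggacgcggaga
Psmb9, chr20:4668870-4669019, plus strand: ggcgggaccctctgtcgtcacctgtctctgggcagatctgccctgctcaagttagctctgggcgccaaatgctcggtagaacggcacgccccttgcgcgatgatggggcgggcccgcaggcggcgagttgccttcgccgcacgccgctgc

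The X1 letters were followed within 40 bases by a Y box on the gene's strand in RT1-Da, RT1-Db1, RT1-Bb and RT1-DMa, that is, in 4 of 9 windows. The same layout stood in 79 of 33469 promoter windows of the same length (0.236%). The RT1-Ba window had the Y box without these X1 letters, and the Cd74 window had a Y box on the reverse strand, from base -189 to base -185 with base -1 just before the start. Singly, the X1 letters were found in 10.2% of windows, the Y box in 37.5% and the ISRE core in 9.71%. Psmb8 held the ISRE core across its start, from base -3 to base 6, and Tap1 held it from base -120 to base -112. The Psmb9 window held no ISRE core. It shares 44 bases with that of Tap1, since the pair is transcribed in opposite directions from neighbouring starts. The remaining motif, TTCNNNGAA (the interferon gamma activated site, 8.87% of windows), was found only in Psmb8 among the 9, far upstream of the printed stretch. No motif overlapped another, and a match in a window is a description of letters.

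Over all 27342 probe sets, limma called 20.7% for the comparison of HHR with NHR averaged over the sexes (adjusted p under 0.05), 9.64% higher and 11.0% lower in HHR. These shares include 11922 probe sets without a gene symbol, whereas the 10 genes, their neighbours and the lists are named genes, so the sets are not quite alike. Of the 10 genes 3 were higher, 3 were lower and 4 did not pass. RT1-DMa, RT1-DMb and Psmb9 rose, and RT1-Da, Cd74 and Psmb8 fell. The median difference over the 10 genes was -0.02 on the log2 scale, against -0.03 over all probe sets, and the median size of a difference was 0.29 against 0.08. All 8 HHR arrays lay above all 8 NHR arrays for 3 of the genes and below them for 2. Over all probe sets 1.95% separated upward and 2.20% downward, 4.15% in all. Values are the authors' log2 expression values, in which a step of 1 is a 2-fold change of signal. Levels of different probe sets are not comparable with each other as amounts of RNA, so differences are read within a gene. Gaps between 2 genes on an array and means over a list are set between strains.

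**Figure D1:**
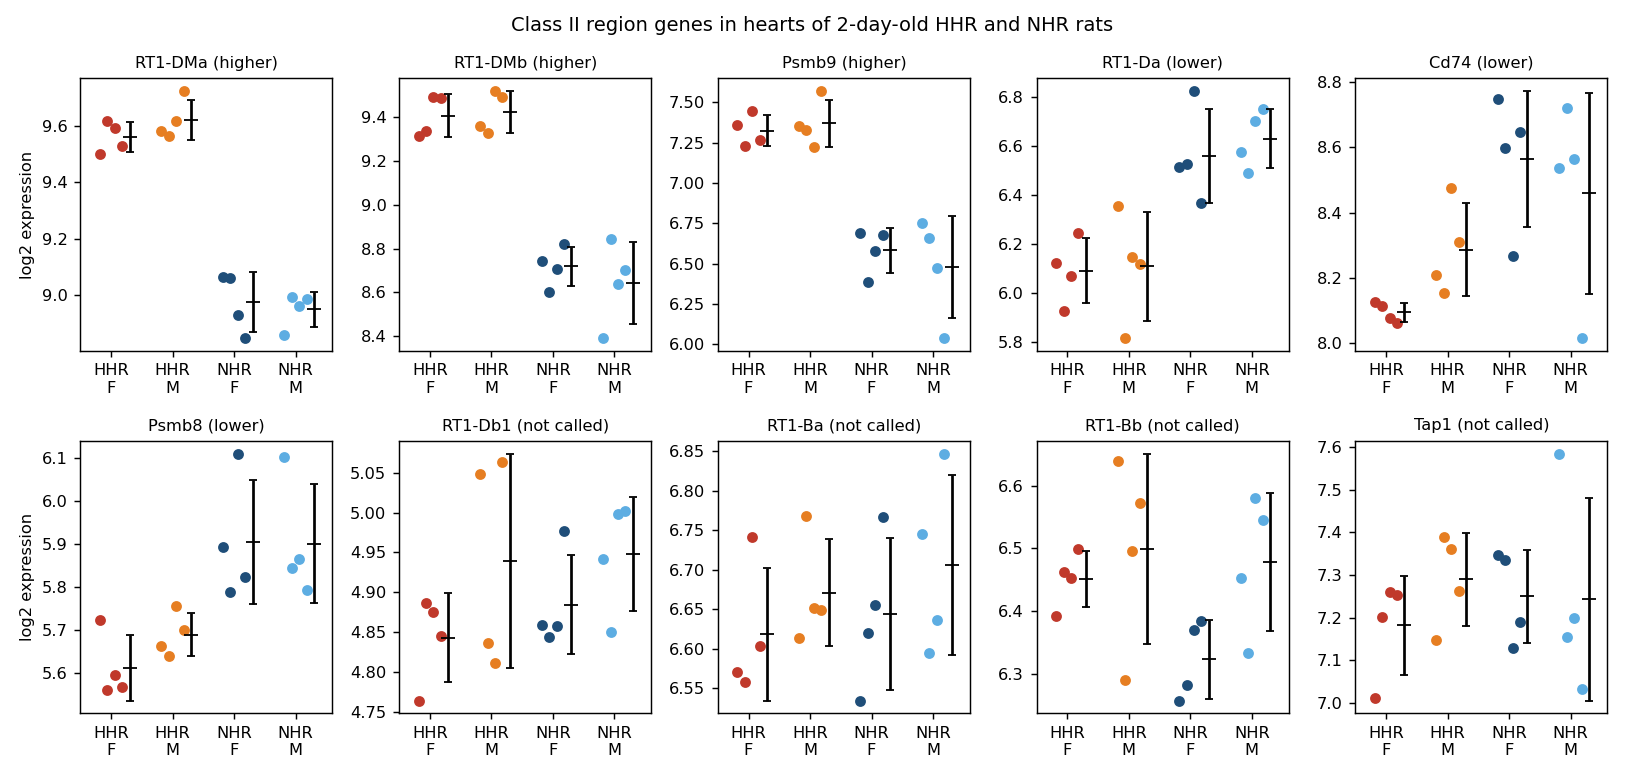
Log2 expression (vertical axes, scales differ) of the 10 genes in each of 16 arrays, by strain and sex (F, female, M, male), 4 arrays a group. Points are arrays, and the bar beside them is the mean with its SD. RT1-DMa, RT1-DMb and Psmb9 separate with HHR above NHR, RT1-Da and Psmb8 with HHR below NHR, and the groups overlap for the other 5 genes.

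Both genes of the peptide editor rose in HHR. RT1-DMa encodes its alpha chain. In HHR it read 9.50, 9.62, 9.59 and 9.53 in females 1 to 4 and 9.58, 9.56, 9.62 and 9.72 in males 1 to 4. In NHR it read 9.07, 9.06, 8.93 and 8.85 in the females and 8.86, 8.99, 8.96 and 8.99 in the males. No NHR array came near the HHR range, and the sexes overlapped within each strain. The means were 9.59 ± 0.07 (SD, n = 8) and 8.96 ± 0.08, and RT1-DMa was 1.54-fold higher in HHR (0.63 on the log2 scale, SE 0.04, limma adjusted p = 6.9e-08).

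RT1-DMb, the beta chain of the editor, read 9.31, 9.34, 9.49 and 9.49 in HHR females and 9.36, 9.33, 9.52 and 9.49 in HHR males. It read 8.74, 8.60, 8.71 and 8.82 in NHR females and 8.39, 8.84, 8.64 and 8.70 in NHR males. The strains were again apart, with NHR male 1 the lowest array of all. The means of 9.42 ± 0.09 and 8.68 ± 0.14 (SD, n = 8) differed 1.66-fold (0.74, SE 0.06, limma adjusted p = 4.9e-07). The difference RT1-DMa minus RT1-DMb on the same array ranged from 0.04 to 0.28 in HHR and from 0.03 to 0.47 in NHR, so the ranges overlapped.

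The 4 class II chain genes did not move as 1 group. RT1-Da encodes the alpha chain of the D molecule, the counterpart of human DR. It read 6.12, 5.93, 6.07 and 6.25 in HHR females and 6.35, 5.81, 6.14 and 6.12 in HHR males, against 6.52, 6.53, 6.83 and 6.37 in NHR females and 6.58, 6.49, 6.70 and 6.75 in NHR males. All 8 HHR arrays were below the lowest NHR array, although HHR male 1 and NHR female 4 almost met. RT1-Da fell by 0.50 (SE 0.08, limma adjusted p = 3.4e-04), from a mean of 6.60 ± 0.15 (SD, n = 8) in NHR to 6.10 ± 0.17 in HHR.

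RT1-Db1 encodes the beta chain that pairs with the product of RT1-Da. It ranged from 4.76 through a median of 4.86 to 5.06 in HHR and from 4.84 through 4.90 to 5.002 in NHR, and the strains overlapped. The difference was -0.02 (SE 0.05, limma adjusted p = 0.761), with a 95% interval from -0.13 to 0.08. Within an array, RT1-Da minus RT1-Db1 had a mean of 1.21 ± 0.17 (SD, n = 8) over HHR and of 1.68 ± 0.16 over NHR. The HHR arrays reached up to 1.40 and the NHR arrays began at 1.39, so the strains met at a single edge. That comparison was chosen after the values were seen and carries no test.

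RT1-Ba and RT1-Bb, the alpha and beta chain genes of the B molecule, the counterpart of human DQ, did not pass. RT1-Ba ranged from 6.56 to 6.77 in HHR (median 6.63) and from 6.53 to 6.85 in NHR (median 6.65), a difference of -0.03 (SE 0.05, limma adjusted p = 0.716, 95% interval -0.13 to 0.07). RT1-Bb ranged from 6.29 to 6.64 in HHR (median 6.48) and from 6.26 to 6.58 in NHR (median 6.38), a difference of 0.08 (SE 0.05, adjusted p = 0.343, 95% interval -0.04 to 0.19). Both genes overlapped between strains on nearly their whole range. A difference of the size seen in RT1-Da lies outside the intervals of RT1-Db1, RT1-Ba and RT1-Bb. These probe sets were dim: RT1-Db1 and RT1-Bb, with Psmb8, did not pass the filter on low values (6.57, the 40th percentile of all values, exceeded on at least 4 arrays), and the other 7 genes did. RT1-Da was dim too and passed through NHR arrays alone, since its highest HHR array read 6.35. The table gives no background level, so signal and background cannot be told apart at this end of the scale.

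Cd74, the invariant chain, was lower in HHR with more spread than the other called genes. HHR females were tight, at 8.13, 8.11, 8.08 and 8.06, and HHR males read 8.21, 8.15, 8.48 and 8.31. NHR females read 8.75, 8.60, 8.27 and 8.65 and NHR males 8.54, 8.72, 8.57 and 8.01. NHR male 4 was the lowest of all 16 arrays and NHR female 3 lay inside the HHR range, while the other 6 NHR arrays were above every HHR array. The means of 8.19 ± 0.14 and 8.51 ± 0.25 (SD, n = 8) gave a difference of -0.32 (SE 0.09, limma adjusted p = 0.0160).

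On the first principal component of the values less their group means, 3 NHR arrays stand apart from the other NHR arrays. They are NHR female 3, NHR female 4 and NHR male 4, with scores of 14.4, 15.1 and 22.6. Of the other 5 NHR arrays, NHR male 3 scored 1.74 and the rest -16.9 to -11.1, while the HHR arrays ran from -3.72 to 7.48. NHR arrays thus lay on both sides of the HHR range, and only the 3 with high scores were left out as a set. Without these 3 arrays Cd74 differed by -0.45 (adjusted p = 2.6e-04). The set holds NHR male 4 and NHR female 3, the NHR arrays that did not lie above every HHR array for Cd74. Leaving it out is therefore no separate check of the Cd74 call. Each of the 6 calls was also made without them, with differences of 0.59 for RT1-DMa, 0.77 for RT1-DMb, 0.76 for Psmb9, -0.46 for RT1-Da and -0.24 for Psmb8. The set of arrays left out was known from earlier results of these data.

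The immunoproteasome genes moved in opposite directions. Psmb9 encodes the beta1i subunit, which takes the place of the Psmb6 product. It read 7.36, 7.23, 7.45 and 7.27 in HHR females and 7.35, 7.33, 7.22 and 7.57 in HHR males, against 6.69, 6.38, 6.58 and 6.67 in NHR females and 6.75, 6.66, 6.47 and 6.04 in NHR males. The strains were well apart, and NHR male 4 was the lowest array. Psmb9 was 1.76-fold higher in HHR, with means of 7.35 ± 0.12 and 6.53 ± 0.23 (SD, n = 8; difference 0.82, SE 0.09, limma adjusted p = 9.7e-06), the largest of the 10 differences.

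Psmb8 encodes the beta5i subunit, which takes the place of the Psmb5 product. It read 5.72, 5.56, 5.59 and 5.57 in HHR females and 5.66, 5.64, 5.75 and 5.70 in HHR males, against 5.89, 5.79, 6.11 and 5.82 in NHR females and 6.10, 5.84, 5.87 and 5.79 in NHR males. Every HHR array was below every NHR array, by a narrow margin (5.75 in the highest HHR array and 5.79 in the lowest NHR array). Psmb8 fell by 0.25 (SE 0.06, limma adjusted p = 0.00381). On the same array Psmb9 minus Psmb8 ran from 1.47 to 1.87 in HHR and from 0.24 to 0.85 in NHR, a comparison chosen after the values were seen. The probe set of Psmb8 was too dim to pass the filter.

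Tap1, a subunit of the peptide transporter, ranged from 7.01 to 7.39 in HHR (median 7.26) and from 7.03 to 7.59 in NHR (median 7.19). It differed by -0.01 (SE 0.07, limma adjusted p = 0.940), with a 95% interval from -0.16 to 0.14. The strains overlapped throughout, with NHR male 1 the highest array. Tap1 lies between Psmb8, which fell, and Psmb9, which rose, so these 3 adjacent genes gave 3 different outcomes.

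**Figure D2:**
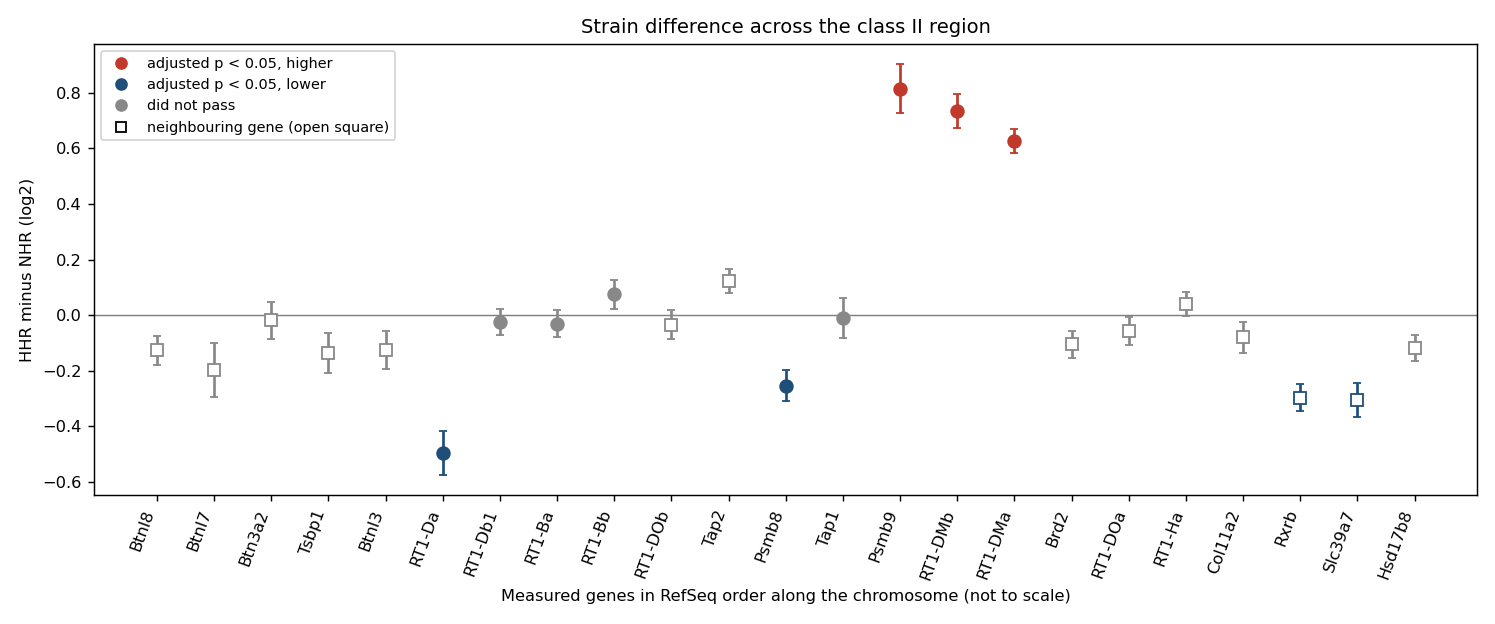
HHR minus NHR (log2, bars are the SE of the limma fit, n = 8 arrays a strain) for 23 measured genes in RefSeq order along chromosome 20, with filled circles for the 9 genes of the report there and open squares for neighbours. Psmb9, RT1-DMb and RT1-DMa stand between 0.63 and 0.82, while Tap1 on one side and Brd2 on the other are at -0.01 and -0.10.

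In RefSeq order Psmb9, RT1-DMb and RT1-DMa follow each other directly. The window from 10 genes before RT1-Da to 10 after RT1-DMa holds 33 RefSeq genes, of which 23 were measured. The 3 were the ones called higher there, a share of 13.0% against 9.64% of all probe sets. Of the 14 measured neighbours, 0 were higher, 2 were lower and 12 did not pass, so that 14.3% were called against 20.7%. The 2 were Rxrb, a retinoid X receptor (-0.30, SE 0.05, limma adjusted p = 4.5e-04, below the whole NHR range in 7 of 8 HHR arrays), and Slc39a7, a zinc transporter (-0.30, SE 0.06, adjusted p = 0.00217, 7 of 8). The neighbours RT1-DOa and RT1-DOb, which encode an inhibitor of the DM editor, differed by -0.06 (adjusted p = 0.459) and -0.03 (adjusted p = 0.692). Brd2, a chromatin reader next to the DM genes, differed by -0.10 (adjusted p = 0.143). Without the 3 NHR arrays that stand apart Brd2 passed, at -0.16 (adjusted p = 0.0427), as it did with array weights (-0.14, adjusted p = 0.0318). Tap2, the partner of Tap1, differed by 0.12 (SE 0.04, adjusted p = 0.0534), with 6 of 8 HHR arrays above the highest NHR array. Without HHR female 3 Tap2 passed (0.14, adjusted p = 0.0416), as it did without HHR male 2 (0.14, adjusted p = 0.0352), and under quantile normalization (0.15, adjusted p = 0.0211), median centring, cyclic loess and the settings that test fewer features. RT1-DOa, RT1-DOb, Brd2 and Tap2 were named for their place or role after their values were seen.

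**Figure D3:**
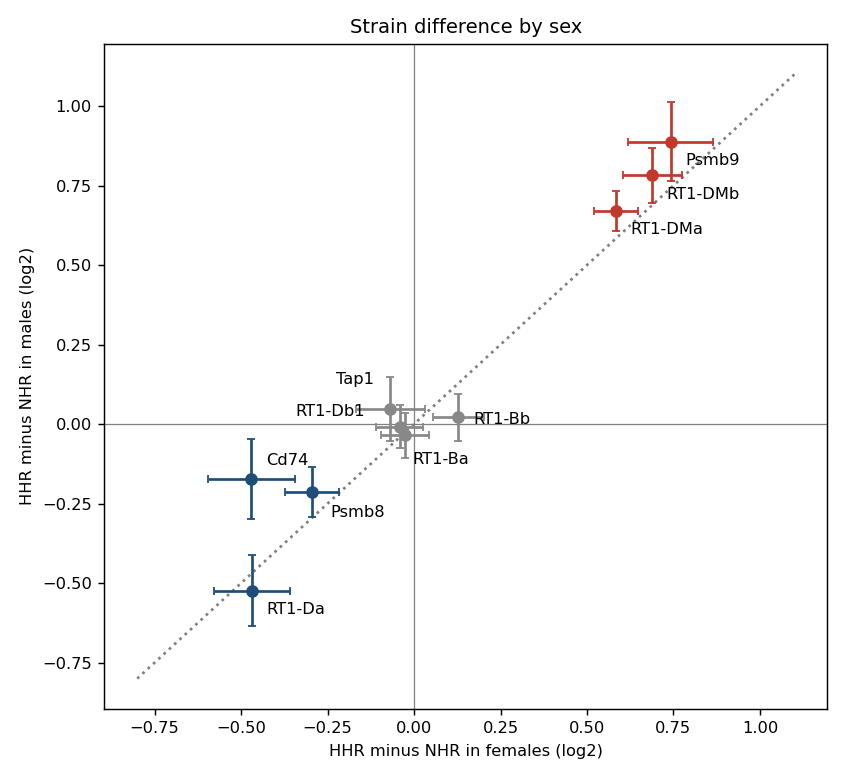
HHR minus NHR (log2) in females (horizontal axis) and in males (vertical axis) for the 10 genes, with SE bars from the limma fit (4 arrays a group), called genes in colour and the dotted line marking equal differences. RT1-DMa, RT1-DMb and Psmb9 lie between 0.58 and 0.89 in both sexes, and Cd74 lies farthest from the line.

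Within females limma called 12.0% of probe sets, and of the 10 genes 3 were higher and 3 lower. Within males it called 4.02%, and 3 were higher and 1 lower. RT1-DMa was higher by 0.58 in females (SE 0.06, limma adjusted p = 3.0e-05) and by 0.67 in males (adjusted p = 6.8e-06). RT1-DMb was higher by 0.69 (SE 0.09, adjusted p = 1.4e-04) and 0.78 (adjusted p = 4.2e-05), and Psmb9 by 0.74 (SE 0.12, adjusted p = 0.00138) and 0.89 (adjusted p = 4.3e-04). RT1-Da was lower by a like amount in both sexes, -0.47 in females (SE 0.11, adjusted p = 0.0114) and -0.52 in males (adjusted p = 0.0126). The female call for RT1-Da was not made without the 3 NHR arrays that stand apart (-0.43, adjusted p = 0.0567), which leaves 2 NHR females.

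Cd74 and Psmb8 passed in females and not in males. Cd74 differed by -0.47 in females (SE 0.13, limma adjusted p = 0.0213) and by -0.17 in males (adjusted p = 0.482), and Psmb8 by -0.29 (SE 0.08, adjusted p = 0.0212) and -0.21 (adjusted p = 0.139). Without NHR male 4 the male difference of Cd74 was -0.32 (adjusted p = 0.102). Without all 3 NHR arrays that stand apart it passed (adjusted p = 0.0310) at the same difference of -0.32. The further arrays left out are females, so the male estimate did not change. The female call for Cd74 was lost without HHR female 3 (adjusted p = 0.0506), HHR female 4 (0.0516), NHR female 1 (0.0523) or NHR female 4 (0.0651). That for Psmb8 was lost without HHR female 2 (0.0571), HHR female 3 (0.0525), HHR female 4 (0.0563) or NHR female 3 (0.0735), and without the 3 NHR arrays (0.125).

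The test of the difference itself called 0 of 10 genes, and 0 of 27342 probe sets, by limma. At an unadjusted p under 0.05 it took 0 of the 10 genes and 1390 probe sets (5.08%), about the share that this threshold takes by chance. The largest difference between the sexes was that of Cd74, 0.30 (SE 0.18, limma unadjusted p = 0.112, adjusted p = 0.994). Males and females, averaged over the strains, differed by at most 0.10 in the 10 genes, with 0 called (limma adjusted p of 0.787 or higher, 0 at an unadjusted p under 0.05, against 0.0110% of probe sets called). Within a strain, 90 correlations between pairs of these genes were computed over 8 arrays each. The highest Pearson coefficient was that of RT1-Db1 with RT1-Bb in NHR (Pearson r = 0.87, exact permutation p = 0.00417, adjusted p = 0.375; Spearman rho = 0.81, exact permutation p = 0.0218, adjusted p = 0.623; r = 0.71 without the 2 arrays farthest from the median). The largest Spearman coefficient in size was that of RT1-Da with Cd74 in NHR, which was negative (rho = -0.86, exact permutation p = 0.0107, adjusted p = 0.623; r = -0.77, exact permutation p = 0.0206, adjusted p = 0.463; r = -0.49 without the 2 farthest arrays). RT1-DMa and RT1-DMb, which differed alike between strains, had r = 0.44 in HHR (exact permutation p = 0.281, rho = 0.67) and 0.21 in NHR (exact permutation p = 0.633, rho = 0.10), adjusted p = 0.778 and 0.949. No pair passed after adjustment.

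The other genes of the pathway were taken from lists. Of 11 measured genes for further class II chains and for antigen processing in the endosome, 5 rose and 1 fell. That is a share of 54.5%, against 20.7% of all probe sets. Ifi30, the thiol reductase that opens disulphide bonds in the endosome, rose by 0.42 (SE 0.05, limma adjusted p = 2.1e-05, 8 of 8 HHR arrays above the highest NHR array), and Lgmn, the protease legumain, by 0.17 (SE 0.04, adjusted p = 0.00747, 6 of 8). Ctsd, the aspartic protease cathepsin D, fell by 0.33 (SE 0.05, adjusted p = 3.1e-04, 8 of 8 below). The other 3 that rose were the cathepsin genes Ctsl (0.21), Ctsb (0.15) and Ctsh (0.18), named after their values were seen. These 3 calls were not made without the 3 NHR arrays that stand apart, where Ctsl differed by 0.16 (adjusted p = 0.123), Ctsb by 0.07 (0.341) and Ctsh by 0.10 (0.267). Leaving out 1 array lost the call for Ctsb in 14 of 16 cases and for Ctsh in 7 of 16. Ctss, which trims the invariant chain in many antigen-presenting cells, differed by 0.02 (adjusted p = 0.905). All 6 that changed encode enzymes of endosomes or lysosomes, as does Ctss, which did not pass. The list was made largely of such enzymes, so this shared trait follows mostly from its making. The cell types behind these differences were not tested. The list's median was 0.11. Without the 3 NHR arrays Ifi30 and Lgmn were called higher and Ctsd lower, as before, and Marchf1, a ubiquitin ligase that removes class II molecules from the surface, was newly called higher (0.21, adjusted p = 0.0211).

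Of 11 measured genes of class II transcription 0 rose and 2 fell, a share of 18.2%, near the 20.7% of all probe sets. The 2 were the general coactivators Kat2b (-0.30, SE 0.04, limma adjusted p = 2.2e-04, 8 of 8 arrays) and Crebbp (-0.18, SE 0.04, adjusted p = 0.00637, 7 of 8). Ciita, the class II transactivator, had means of 6.87 ± 0.07 in HHR and 6.91 ± 0.14 in NHR (SD, n = 8; difference -0.05, adjusted p = 0.603, 95% interval -0.17 to 0.07). Of 11 genes of interferon gamma signalling 1 rose (9.09%), the phosphatase gene Ptpn2 (0.18, SE 0.05, adjusted p = 0.0277, 5 of 8 arrays). It was not called without HHR female 1 (adjusted p = 0.0567), HHR female 4 (0.0511), HHR male 1 (0.0560), HHR male 2 (0.0556) or NHR male 3 (0.0588), nor without the 3 NHR arrays (0.139). Ifng itself differed by -0.03 (adjusted p = 0.808), a difference whose sign turned under quantile normalization, cyclic loess and array weights, without NHR male 3 and without the 3 NHR arrays. Ciita and Ifng were named for their role.

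Of 11 genes of class I peptide loading 0 rose and 4 fell, a share of 36.4% against 20.7% of all probe sets. Among the 4 were the proteasome activator Psme1 (-0.24, SE 0.06, limma adjusted p = 0.00484, 8 of 8 arrays) and a relative of tapasin, Tapbpl (-0.21, SE 0.05, adjusted p = 0.00799, 6 of 8). The other 2 were tapasin, Tapbp (-0.18), and the trimming peptidase Erap1 (-0.16), named after their values were seen. Leaving out 1 array lost the call for Tapbp in 9 of 16 cases and for Erap1 in 3 of 16, and both were lost without HHR female 1, without HHR female 4 and without the 3 NHR arrays. Psme2, the partner of Psme1, had the largest difference of the list and the opposite sign (0.30, SE 0.11, adjusted p = 0.0637). It was called higher without NHR female 2 (adjusted p = 0.0374), without NHR male 2 (0.0236) and with array weights (0.0488). The third immunoproteasome gene, Psmb10, differed by 0.05 (adjusted p = 0.557). Among 4 listed genes, the constitutive counterparts and the proteasome assembly factor Pomp, Psmb5 rose by 0.32 (SE 0.07, adjusted p = 0.00375, 7 of 8 arrays) where its replacement Psmb8 fell, and Psmb6 differed by 0.04 (adjusted p = 0.721) where its replacement Psmb9 rose. Of these 4 genes 1 was called (25%). Without NHR female 1 Pomp was called lower too, so that 2 of the 4 were called. Of 25 class I genes of the complex 0 rose and 4 fell (16.0%), with RT1-T24-4 the strongest (-0.42, SE 0.06, adjusted p = 1.7e-04, 6 of 8 arrays) and RT1-M6-1 at -0.22 (adjusted p = 0.0179, and 0.0830 without the 3 NHR arrays). RT1-CE4 (-0.19) and RT1-CE5 (-0.18) were the others, and leaving out 1 array lost RT1-CE4 in 5 of 16 cases. Without HHR male 2, 2 were called, and without the 3 NHR arrays 1. Some class I genes are close copies of each other, and probe sets of such copies may share signal. Which of the 25 genes this concerns was not tested.

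**Figure D4:**
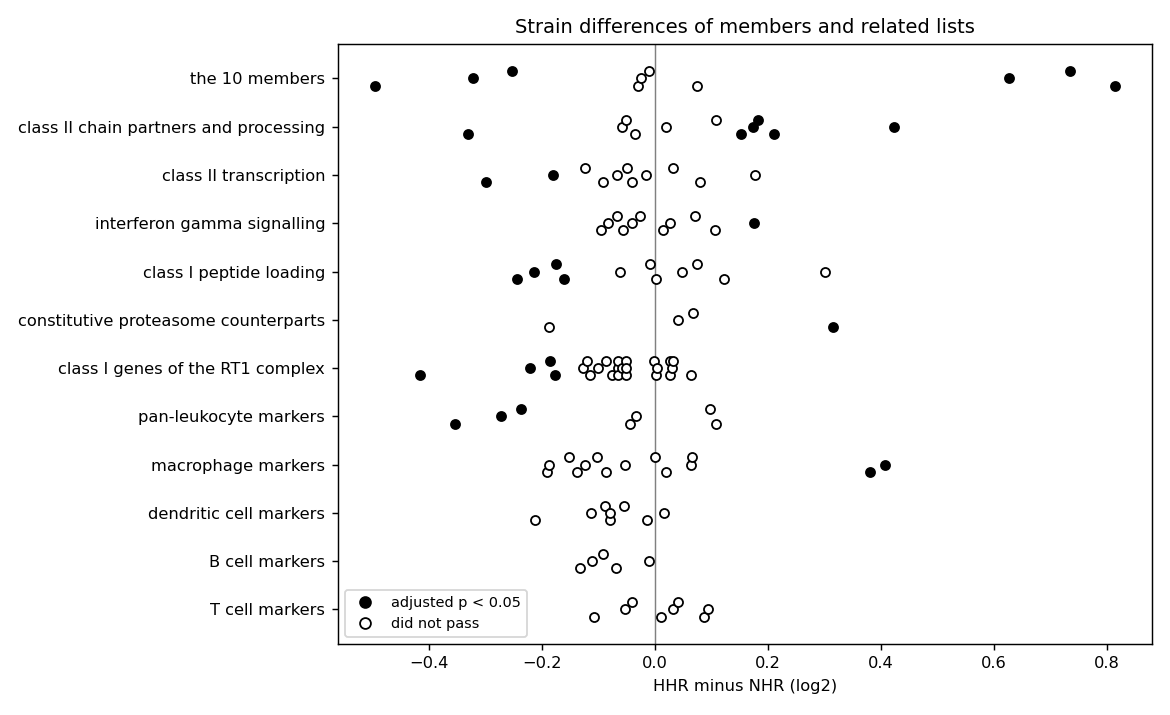
HHR minus NHR (log2, horizontal axis) for each measured gene of the 10 and of 11 related lists (rows), filled where limma's adjusted p was under 0.05. The 10 genes reach from -0.50 to 0.82, beyond the -0.42 to 0.42 of every listed gene.

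Markers of cells that carry class II molecules, and of other cells such as cardiomyocytes, were read beside these results. The mean log2 value of 10 cardiomyocyte markers was 12.99 to 13.07 in HHR and 13.07 to 13.19 in NHR, on arrays with medians of 7.19 to 7.28. These levels have no tissue to be compared with and do not test the label. Of the 10 markers 6 were lower and 0 higher (3 and 0 without the 3 NHR arrays), a share of 60% against 20.7% of all probe sets. Among the 6 were Ryr2, the calcium release channel, at -0.26 (limma adjusted p = 0.00158), and Ttn, the giant spring protein titin, at -0.24 (adjusted p = 7.4e-04). Of 7 pan-leukocyte markers 3 fell and 0 rose, a share of 42.9%. The 3 were Coro1a (-0.35, SE 0.05, adjusted p = 2.2e-04), Ptprc (-0.27, SE 0.05, adjusted p = 6.0e-04) and Cd52 (-0.24), named after its value was seen and lost in 8 of 16 cases when 1 array was left out. Coro1a and Ptprc separated the strains in 8 of 8 arrays. The other 4 did not pass, among them Laptm5 (0.11) and Cd53 (0.10) with the opposite sign, and the median was -0.04. Without the 3 NHR arrays Fcer1g was called lower as well. The mean log2 value of the 7 ran from 7.37 to 7.66 in HHR and from 7.47 to 7.64 in NHR. The NHR range of this mean lay inside the HHR range only because of HHR male 4 (7.66), as the next highest HHR array read 7.51. The medians of this mean were 7.45 in HHR and 7.61 in NHR. The part of Coro1a, Ptprc and Cd52 in the differences of RT1-Da and Cd74 was not tested.

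Of 14 macrophage markers 2 rose and 0 fell, Lyve1 (0.41, SE 0.07, limma adjusted p = 8.4e-04, 8 of 8 arrays) and C1qb (0.38, SE 0.09, adjusted p = 0.00484, 3 of 8), a share of 14.3% against 20.7% of all probe sets. The median was -0.07, and the lowest values were those of Lyz2 (-0.19, adjusted p = 0.207) and Cd163 (-0.19, adjusted p = 0.406), of which Lyz2 was called lower without HHR male 4 (-0.28, adjusted p = 0.0232). The mean over the list ran from 7.46 to 7.87 in HHR and from 7.50 to 7.80 in NHR. Of 8 dendritic cell markers, 5 B cell markers and 8 T cell markers limma called 0 each, against 1, 1 and 0 at an unadjusted p under 0.05. Without NHR male 2, the dendritic cell marker Clec10a and the B cell marker Ms4a1 were called lower. Their list means were 6.54 to 6.67 in HHR and 6.58 to 6.76 in NHR for dendritic cells, 5.84 to 5.96 and 5.86 to 6.10 for B cells, and 5.98 to 6.07 and 5.90 to 6.12 for T cells. All 3 pairs of ranges overlapped. Of 7 endothelial markers 4 fell and 1 rose, a share of 71.4% against 20.7% of all probe sets. Those that fell were led by the junction gene Cldn5 (-0.41, SE 0.05, adjusted p = 6.8e-05, 7 of 8 arrays) and by Tie1, a receptor of vessel stability (-0.22, SE 0.04, adjusted p = 0.00138, 8 of 8). Esam, an adhesion molecule, was higher (0.22, SE 0.05, adjusted p = 0.00441). The endothelial mean ran from 10.32 to 10.44 in HHR and from 10.41 to 10.56 in NHR. The part of these shifts in the results was not tested.

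After the group means were subtracted, the genes closest in pattern to the mean of the 4 chain genes, Cd74 and the DM genes over 16 arrays were Dnah12 (r = 0.83), Gpr15 (0.81), Ptprz1 (0.80), Kcnk9 (0.80) and Tmem125 (0.79), out of 14314 genes. None of these 5 passed the test for strain. For the mean of Psmb8, Psmb9 and Tap1 they were Dennd2b (r = 0.88), Nox4 (0.84), Scamp2 (0.84), Tgif1 (0.84) and Zfp142 (0.83), of which Nox4 (-0.15) and Zfp142 (-0.16) passed. These are the highest of many correlations and describe likeness in these arrays only.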

How the data were processed

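RNA of 16 hearts was measured on Affymetrix Rat Gene 1.0 ST arrays. The authors deposited log2 values from RMA, a method that removes background, puts arrays on 1 scale and gives 1 value per probe set (both RMA and limma appear in the submitters' processing notes). No version, annotation or filter is stated. The array medians lay between 7.19 and 7.28, and any 2 arrays correlated at 0.990 or higher. The table held 27342 probe sets, of which 15097 had 1 gene symbol in the platform's annotation, 323 several and 11922 none.

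A mean per group was fitted with limma 3.58.1 in R 4.3.3 to all 16 arrays, with moderated variances, and p-values were adjusted by Benjamini and Hochberg's method across the whole table (threshold 0.05). The procedure was tested on simulated data. A positive difference means a higher value in HHR. SE is the moderated standard error, and p-values weigh a difference against the moderated spread between arrays within the groups. With no litter named, it is not known whether the animals of a group are independent. The number of arrays limits the precision. The array annotation's build was not given, so RefSeq (GRCr8) was used for names, gene order and promoter windows. Motifs were read on both strands.

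The 10 genes and all lists were chosen with earlier results of these data known. Named list genes are up to 2 per direction with the smallest adjusted p, and up to 4 per direction among neighbours. Alternatives changed the arrays, scaling, filter, moderation, weights, block, threshold and probe set.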

Additional observations from a re-analysis of the deposited data

Results flagged for a closer look

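In 160 checks of 4 arrays each (40 genes named for the strain comparison in 4 groups), 1 array stood far from the other 3 in 6 cases, where chance gives about 1 in 20. RT1-Db1 read 4.98 in NHR female 4 against 4.84 to 4.86 in the other NHR females. Ifi30 read 9.97 in NHR male 2 against 9.75 to 9.78. Psme1 read 11.15 in HHR female 3 against 11.11. Tap2 read 6.66 in NHR female 3 against 6.62 to 6.63, and Psmb10 read 7.94 in HHR female 1 against 7.74 to 7.77. Brd2 read 10.70 in HHR female 4 against 10.51 to 10.54.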

How the results depend on the processing

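The calls for RT1-DMa, RT1-DMb, Psmb9, RT1-Da and Psmb8 in the comparison averaged over the sexes kept their direction and their side of the threshold in every alternative that gave a value. These were leaving out each array, leaving out the 3 NHR arrays, quantile normalization, median centring, cyclic loess, the filter on dim probe sets, single-gene probe sets, trended and robust moderation, array weights, the replicate number as a block, a threshold of 0.01 and additive terms. The filter on dim probe sets gave no value for Psmb8, RT1-Db1 and RT1-Bb. RT1-Da passed this filter only through its NHR arrays, where it is higher, so that alternative is no separate check of its call. Averaging a gene's probe sets or taking the dimmest left the values of the 10 genes as they were, since each has 1. Cd74 differed by -0.45 to -0.28, with an adjusted p of up to 0.0373, and missed the threshold of 0.01. At that threshold 3 of the 10 genes were called in females, in place of 6. With the replicate block 6 of the 10 genes were called over both sexes, 6 in females, 4 in males and 0 for the interaction, as without it, while Clec10a was called lower (-0.21, adjusted p = 0.0299), Psme2 was called higher (0.30, adjusted p = 0.0364) and the probe sets called were 6145 in place of 5651. The numbers were not taken to pair the arrays, since same-numbered arrays of 1 sex correlated at -0.11 to 0.30 after group means were subtracted. Psmb8 in females was also lost under quantile normalization (adjusted p = 0.0565, limma) and cyclic loess (0.0586), and passed in males with array weights (0.0356).

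Over all probe sets, the 5651 calls became 2893 at a threshold of 0.01, and 3520 and 3525 with 1 mean or dimmest value per gene, where fewer features were tested. Of the 5651 calls 46.6% were higher in HHR. That share was 49.6% after quantile normalization, 52.6% after cyclic loess and 56.3% after median centring. The more common direction over all probe sets thus depended on the scaling. The 3278 calls in females became 1238 without the 3 NHR arrays and 1176 at 0.01, and 1830 to 3761 when an array was left out. The 1098 in males became 332 at 0.01, 2035 with array weights and 489 to 2026 when an array was left out.

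Differences near 0 changed sign without passing. Without the 3 NHR arrays RT1-Db1 was 0.000544, RT1-Ba 0.0267 and Ifng 0.0202. After quantile normalization RT1-Db1 was 0.0200, Tap1 0.0152 and Ifng 0.00647, and after median centring Tap1 was 0.0121. After cyclic loess RT1-Db1 was 0.0160, RT1-Ba 0.00426, Tap1 0.0236, Ifng 0.0130 and RT1-DOb 0.000313, and with array weights Ifng was 0.00312. When an array was left out Tap1 ran from -0.0455 to 0.0465, Ifng from -0.0701 to 0.00762 and Psmb6 from -0.00719 to 0.0889. The cause of these shifts was not tested.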
